A study of Mus musculus with 8 samples.

Results

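Wild-type competitor LSK cells were set against wild-type LSK cells that had carried an empty vector, over 3 of the 8 arrays of the series. LSK stands for Lineage- Sca-1+ c-Kit+, the bone marrow fraction without markers of mature blood cells that bears both Sca-1 and the receptor c-Kit. All mice were C57BL/6. The reference array, named WT, held CD45.2 cells from Cre-ERT;Ezh2wt/wt donors whose stem cells had received an empty retrovirus. These cells went into lethally irradiated recipients beside CD45.1 marrow from wild-type mice, given to keep the recipients alive. The CD45.1 marrow is labelled wild type and received no virus. In other recipients the same kind of CD45.1 marrow shared the host with CD45.2 cells of 2 genotypes, and the 2 competitor arrays held its LSK cells. The first came from hosts of RUNX1S291fs cells (named here single-mutant marrow), and the second from hosts of RUNX1S291fs/Ezh2Δ/Δ cells (double-mutant marrow), both before MDS (a myelodysplastic syndrome) had set in. RUNX1S291fs is a frameshift mutant of the transcription factor RUNX1 put in by retrovirus, and Ezh2Δ/Δ denotes Ezh2 removed after grafting through the inducible Cre. RNA was taken 4 months after transplantation from cells pooled over 2 to 4 mice, with 1 array for each group and no replicate. The 5 other CD45.2 arrays serve here to show the range of each gene, and enter a fit to all 8 arrays and the choice of probes. They held Ezh2Δ/Δ, RUNX1S291fs and RUNX1S291fs/Ezh2Δ/Δ cells at 4 months, and RUNX1S291fs/Ezh2Δ/Δ cells of a moribund mouse with MDS and of another with MDS and myeloid leukemia (MDS/ML). The question was which genes differed from WT in the same direction on both competitor arrays. The competitors and WT differed together in CD45 allele, in exposure to virus and Cre, in the cells that shared the marrow and in the slide that held the array, and these cannot be told apart here.

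The LSK fraction holds the stem cells that can rebuild the blood and the early multipotent progenitors below them, and it transcribes low amounts of the genes of several lineages at the same time. In a mixed graft, the competitor cells live in the same niche as the donor cells and meet the same cytokines. Interferon acts on stem cells through a set of antiviral target genes. CD45.1 and CD45.2 are alleles of Ptprc, and mice that differ in them also differ in the chromosome segment carried along with that gene.

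Levels are given as log2 signal minus the 75th percentile of the same array, so that a probe at that percentile has level 0, and a difference of 1 is 2-fold. A probe was taken as measured where the scanner software marked it well above background. A dim probe was held at the lowest level measured on its array, which turns a difference into a bound, written "at least". The sort markers Kit (4.99 on WT, 4.06 and 4.71 on the competitors), Ly6a (3.74, 3.90 and 4.14), which codes for Sca-1, and Cd34 (8.18, 7.88 and 7.84) were measured on all 3 arrays. Ptprc itself was at 1.73 on WT and at 1.79 and 2.20 on the competitors. Of 8 lineage markers used to sort cells out, 5 were measured, among them Cd3e (0.10 on WT, 1.18 and -0.07). Xist was measured on all 3 arrays (1.33, 1.78 and 1.19), and the 4 Y-linked genes Ddx3y, Eif2s3y, Kdm5d and Uty on none of them. Ezh2 was at 3.46 on WT and at 4.01 and 3.84 on the competitors, within 2-fold. The same probe was at 3.51 on the Ezh2Δ/Δ array. On the RUNX1S291fs/Ezh2Δ/Δ arrays it was at 3.42 before disease, 3.29 with MDS and 3.10 with MDS/ML. It therefore does not show the deletion, and cannot show whether Ezh2 was intact. The 75th percentile of the signal was 474.6 on WT, 185.9 in single-mutant marrow and 429.6 in double-mutant marrow, and 55.31%, 43.94% and 49.9% of probes were well above background. The lowest measured level was therefore higher in single-mutant marrow (-3.48) than on WT (-5.20) or in double-mutant marrow (-4.77), which leaves fewer low genes measurable there. The spike-in probes added with equal RNA lay at a median level of 2.48 on WT and of 4.01 and 3.81 on the competitors, so the total labelled signal per spike-in differed between them.

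Of 20643 named genes, 14051 were well above background on at least 1 of the 3 arrays and 11860 on all 3. On both competitor arrays 326 genes (2.32%) lay at least 2-fold from WT in the same direction, 235 higher (1.67%) and 91 lower (0.648%). On single-mutant marrow alone 2489 genes (17.7%) lay at least 2-fold from WT, and on double-mutant marrow alone 956 (6.8%). The 2 competitor arrays themselves lay at least 2-fold apart in 2141 genes (15.2%), with both on 1 slide. Of these, 1244 (8.85%) were higher in single-mutant marrow and 897 (6.38%) in double-mutant marrow. That split turned to 739 and 1441 when arrays were scaled on their medians, to 843 and 1303 on the probes detected on all 3, and to 733 and 1097 after quantile normalization. Both differences use the same WT array, so a deviation of that array enters both. A further 29 genes lay at least 2-fold from WT on both arrays in opposite directions, 11 higher in single-mutant marrow and 18 higher in double-mutant marrow. The share of higher genes among the 326 was 72.1%, and it was 51.3% (181 higher and 172 lower) when each array was scaled on the probes detected on all 3 arrays. That scaling moved the median difference of all genes measured on the 3 arrays from 0.20 to -0.08 in single-mutant marrow and from 0.08 to -0.02 in double-mutant marrow. Of the called genes measured on all 3 arrays, the smaller difference from WT exceeded the gap between the competitors in 151 of 192 higher genes and in 52 of 59 lower genes. Next to the 2-fold limit, Slc3a2 (smaller difference 1.00) was called, and Cebpb (0.997) was not.

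**Figure D1:**
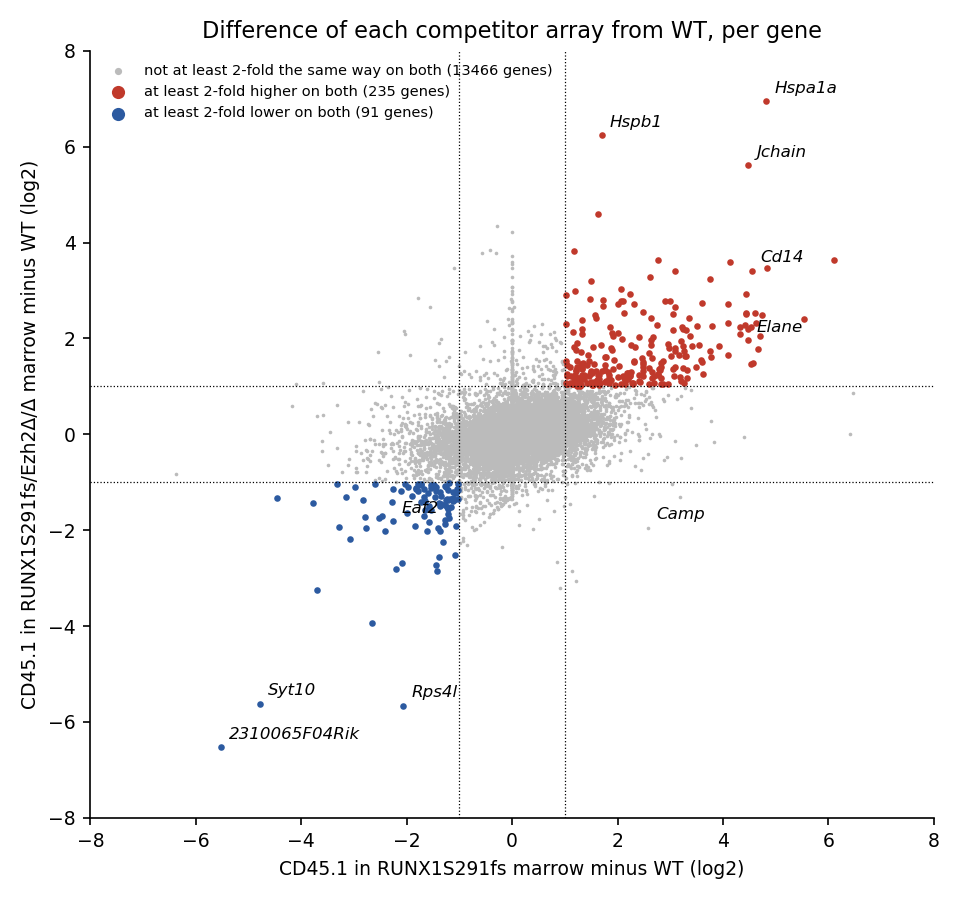
Each point is a gene measured on at least 1 of the 3 arrays. The x axis gives the log2 difference from WT in single-mutant marrow and the y axis that in double-mutant marrow. Dotted lines mark 2-fold. The 235 genes higher on both arrays are red and the 91 lower are blue. Points in a column at 0 are genes whose difference is only a bound that reaches 0. Hspa1a and Jchain lie farthest to the upper right, and 2310065F04Rik and Syt10 farthest to the lower left.

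A test across all 14051 genes called none of them. In limma's fit to the 3 arrays, which has 1 residual degree of freedom and assumes that the lone WT array varies like the competitors, 0 genes passed an adjusted p of 0.05, and 379 had an unadjusted p under 0.05. The smallest adjusted p of that limma fit was 0.0666, for 2310065F04Rik (log2 difference -6.03, SE 0.67) and Jchain (5.05, SE 0.59). Hspa1a followed at 0.0966 and Syt10 at 0.127 by the same limma fit. A limma fit to all 8 arrays with a term for CD45.1 also called 0, with 341 genes at an unadjusted p under 0.05 and a smallest adjusted p of 0.349 for 2310065F04Rik (-5.58, SE 0.60). With slide as a block that limma fit called 3 genes, 2310065F04Rik (-5.14, adjusted p = 0.0310), Gda (5.12, adjusted p = 0.0131) and Hvcn1 (3.87, adjusted p = 0.0368). Without the block the same limma fit gave 3.73 for Gda and 2.98 for Hvcn1, each with an adjusted p of 0.993, so these calls rest on how the slide was treated. The fits to all 8 arrays also hold terms for Ezh2 deletion, RUNX1S291fs and moribund stage. With the block, the fit has 1 residual degree of freedom, which is the gap between the 2 competitor arrays. Its slide effect rests on the assumption that the effects of Ezh2 deletion and RUNX1S291fs add up. Gda, which deaminates guanine, was at 0.90 on WT and at 3.57 and 2.92 on the competitors, and Hvcn1, a proton channel, at 0.89, 3.22 and 2.72. An exact permutation test of 2 arrays against 1 cannot give a p below 0.333, so all counts of genes that follow describe these 3 arrays.

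The gene farthest above WT on both arrays was Hspa1a, the stress-inducible Hsp70 chaperone. Its level was -2.91 on WT, 1.91 in single-mutant marrow and 4.04 in double-mutant marrow, 28.3-fold and 124-fold higher. Its neighbour Hspa1b has a nearly identical sequence, and the probe may read both. Among the 6 CD45.2 arrays Hspa1a ranged from -3.07 to 3.13, so WT was near the low end of them. Jchain, the chain that joins antibody polymers in antibody-secreting cells, was at -3.03 on WT, the lowest of the 8 arrays, at 1.46 in single-mutant marrow and at 2.59 in double-mutant marrow. Tctex1d1, a gene of the dynein light chain family, was at -3.19, 2.92 and 0.44 on the same arrays, 68.8-fold and 12.4-fold higher. Fam71a was at -4.46, -0.32 and -0.86.

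Cd14, which presents bacterial lipopolysaccharide to Toll-like receptor 4, was at -3.47 on WT, 1.09 in single-mutant marrow and -0.06 in double-mutant marrow. Tnfaip6, a hyaluronan-binding protein induced by tumour necrosis factor, was at -4.67 on WT and at -0.92 and -1.44 on the competitors. Its other measured probe did not lie above WT on both arrays. Cd83, a surface protein of activated dendritic cells, was at -3.14 on WT and at -0.04 and 0.26 on the competitors. Ccl2, a chemokine that draws monocytes, was at -1.91, 2.53 and 1.02, and its receptor Ccr2 at -1.66, 2.77 and 0.87. WT was the lowest of the 6 CD45.2 arrays for Cd14 and Ccl2, whose highest CD45.2 levels were 3.18 and 3.50, above both competitors. Rgcc, a regulator of the cell cycle, went from 3.15 on WT to 6.15 and 5.93. Id1, an inhibitor of basic helix-loop-helix factors, stood at 0.19 on WT and at 2.80 and 3.48 on the competitors. Igsf6, a receptor of the immunoglobulin superfamily, was at 0.16 on WT and at 4.91 and 2.65.

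Among the lower genes 2310065F04Rik stood apart. It was at 2.87 on WT, -2.66 in single-mutant marrow and -3.66 in double-mutant marrow, 46.2-fold and 92.2-fold lower. On the 6 CD45.2 arrays it ranged from -0.08 to 2.87, so every CD45.2 array lay above both CD45.1 arrays. Rps4l, a gene related to ribosomal protein S4, was at 2.14 on WT, 0.08 in single-mutant marrow and -3.51 in double-mutant marrow. Its CD45.2 arrays ranged from -3.70 to 2.14 and so covered both competitors. Esr1, the oestrogen receptor alpha, was at 0.96 on WT and at -1.81 and -0.99 on the competitors, below its CD45.2 range of 0.16 to 1.62. Eaf2, a factor that binds the elongation factor ELL, was at 6.02 on WT and at 3.77 and 4.22, below a CD45.2 range of 4.54 to 6.53, but its other measured probe was called the opposite way. Serpina3f, a serine protease inhibitor, was at 1.62, -0.90 and -0.12, and C4b, a complement component, at 0.65, -2.15 and -1.07. Spic, a transcription factor of iron-recycling macrophages, was at -0.63 on WT and at -2.62 and -2.29 on the competitors. Rbpms2, Atp8b5, Rap1a, Mc3r and Rab3c completed the 12 lower genes measured on all 3 arrays, with smaller differences between -1.58 and -2.19.

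**Figure D2:**
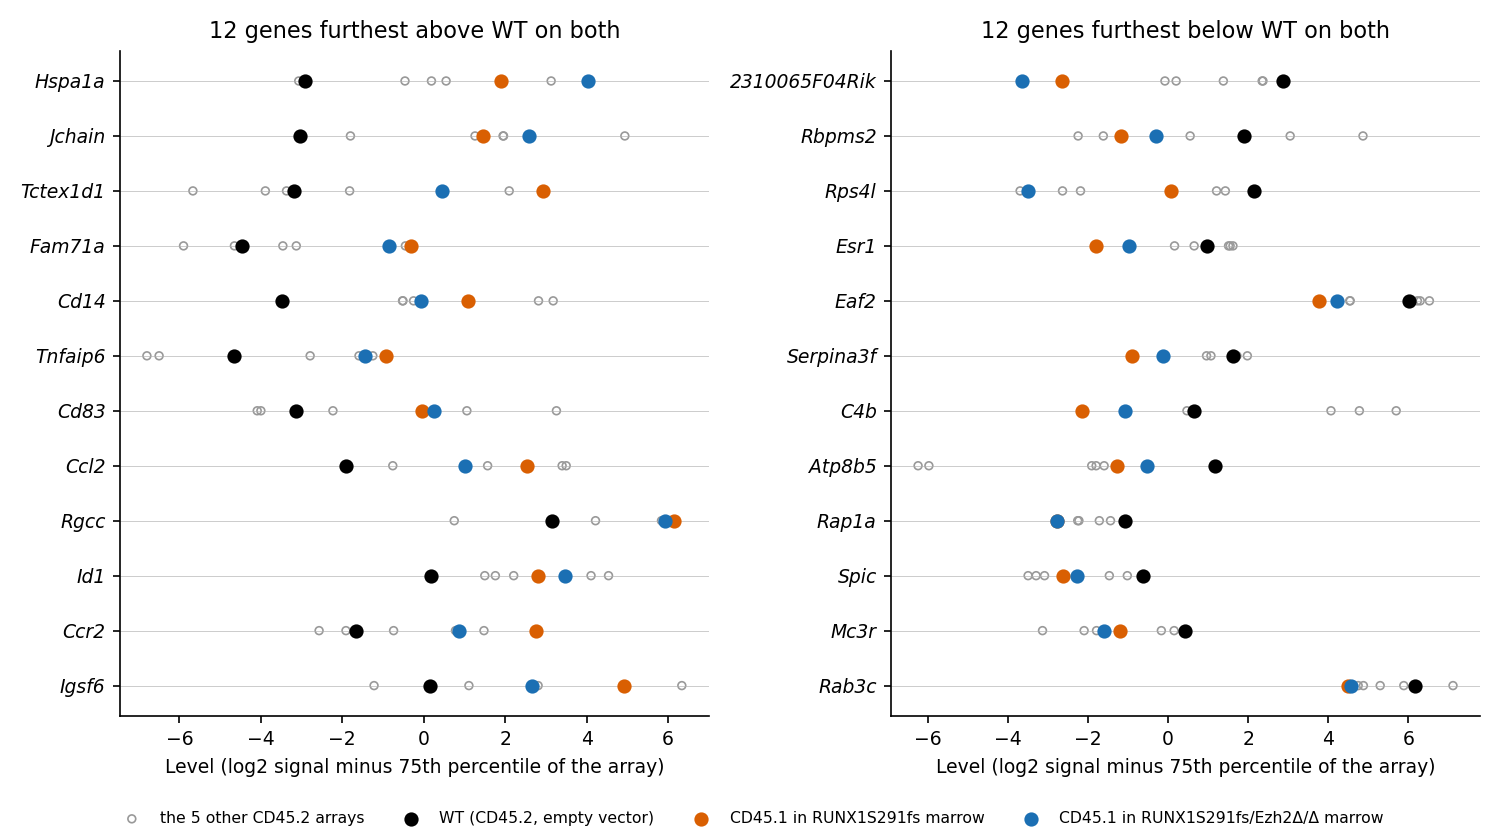
Levels (x axis, log2 signal minus the array's 75th percentile) of the 12 genes with the largest smaller difference in each direction, among those measured on all 3 arrays. Black points are WT, orange and blue the competitors in single-mutant and double-mutant marrow, and open circles the 5 other CD45.2 arrays. For most of the higher genes some open circles reach the competitors, while for 2310065F04Rik, Esr1, Eaf2 (whose other probe was called the opposite way), Serpina3f, C4b, Rap1a and Rab3c all open circles lie to the right of both competitors.

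Some genes were measured on one side only. Mcpt4, a mast cell chymase, was not well above background on WT (-7.13) and was at -1.11 and -2.48 on the competitors, at least 17.0-fold and 6.58-fold higher. Tgif2lx2 (-0.35 and -1.72), Unc5cl (-1.92 and -2.05), Trnp1 (-2.43 and -1.57) and Spink2 (-1.33 and -2.19) were likewise measured on the competitors and not on WT. So was Oosp2 (-2.45 and -2.92), named for its place in the fit to all 8 arrays (log2 difference 3.02, SE 0.6). In the other direction, Syt10, a synaptotagmin, was at 1.30 on WT and not well above background on either competitor, at least 27.6-fold and 49.0-fold lower. It was well above background on WT alone of the 8 arrays. Rbm44 (-0.82 on WT), Npbwr1 (-2.04) and Nudt11 (-2.10) were also measured on WT and on neither competitor, and these 4 were all the genes of that kind that passed 2-fold on both. In all, 47 genes were measured on both competitors and not on WT, and 805 on WT alone.

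Set against all 8 arrays, WT often stood at the end of the order. Here levels are taken as read, dim ones included. Of the 235 higher genes, WT was the lowest of the 8 arrays in 81 (34.5%), against 8.82% of all genes measured. In 24 of them (10.2%, against 6.66% of all genes) both competitors lay above all 6 CD45.2 arrays. Of the 91 lower genes, WT was the highest of the 8 arrays in 50 (54.9%, against 7.76%), and both competitors lay below all 6 CD45.2 arrays in 18 (19.8%, against 2.37%). The calls require WT to be on that side of the competitors, so these shares are descriptions.

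On the same levels as read, both competitors lay at least 2-fold above every CD45.2 array in 7 genes (0.0498%). They lay at least 2-fold below every one in 7 others (0.0498%). The genes of the first group had to be well above background on both competitors, and those of the second on all 6 CD45.2 arrays. All of these genes are named here for that place in the order, after their values were seen. Ctse, the protease cathepsin E, was at 3.76 in single-mutant marrow and 4.42 in double-mutant marrow, against 1.66 on WT and between -0.02 and 1.89 on the 6 CD45.2 arrays. Mfsd2a, a lipid transporter, was at -0.87 and -1.81 on the competitors and at -3.14 at most on the CD45.2 arrays. Trnp1, Unc5cl, Nrg1, 2410003L11Rik and 3425401B19Rik made up the 7, and none of these was well above background on WT. Among the 7 below, beside 2310065F04Rik and Esr1, Plscr2, a scramblase-family gene, was at -5.37 (not well above background) and -3.04 on the competitors and between -0.68 and 2.64 on the CD45.2 arrays. Pcdhb16, a protocadherin, was at -5.29 (not well above background) and -4.08 there, against a CD45.2 range of -2.44 to 0.22. Kcp, Gm9895 and Tbc1d30 completed the list. With dim values held as bounds, the difference from WT was -0.68 for Kcp in single-mutant marrow and 0.86 for 2410003L11Rik in double-mutant marrow. Both fell short of 2-fold, so neither gene counted as called.

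Immediate early genes, which code mostly for transcription factors switched on by acute stimulation, were at least 2-fold higher on both competitors in 7 of 24 measured members, against 1.67% of all genes, and none was lower. The 7 were Fosb, Egr2, Atf3, Klf2, Klf4, Klf6 and Maff. Atf3 was at 2.09 on WT, 4.32 in single-mutant marrow and 5.0 in double-mutant marrow. Egr2 was at -2.36, -0.29 and 0.67, and Klf4, a Krüppel-like factor, at 2.69, 4.42 and 5.37. Fosb, a partner of Jun in AP-1, was at 4.91, 6.22 and 7.0. The list's median difference from WT was 0.66 in single-mutant marrow and 1.48 in double-mutant marrow, against 0.09 and 0.05 over all genes measured. In double-mutant marrow 19 of the 24 members lay at least 2-fold above WT (4.54% of all genes did), and in single-mutant marrow 8 (11.2% of all genes). The mean level of the list was 3.47 on WT, 4.19 and 5.04 on the competitors, and 4.50, 5.77, 3.20, 5.80 and 3.60 on the other CD45.2 arrays (in the order Ezh2Δ/Δ, RUNX1S291fs, RUNX1S291fs/Ezh2Δ/Δ before disease, with MDS and with MDS/ML). WT was thus the second lowest of the 8, and WT was the lowest array for 1 of the 7 called members. The count of 7 was between 3 and 7 under the other scalings and background corrections.

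Heat shock genes, chaperones and co-chaperones under heat shock factor 1, were higher in 3 of 14 members, against 1.67% of all genes, and lower in 0. Beside Hspa1a these were Hsph1, a nucleotide exchange factor for Hsp70 (2.49 on WT, 4.39 and 4.25), and Hspb1, the small heat shock protein Hsp27 (-3.01 on WT, -1.31 and 3.23). Hspb1 was 3.25-fold above WT in single-mutant marrow and 75.6-fold in double-mutant marrow. The competitors lay on the same side of WT in most other members too, with list medians of 1.05 and 0.52. Above WT were 12 and 13 of the 14, against 7571 and 7657 of all 14051 genes. The 3 genes were called under each of the other scalings.

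Unfolded protein response genes, which serve protein folding in the endoplasmic reticulum, were higher in 5 of 18 members, against 1.67% of all genes, and lower in 0. Hspa5, the chaperone BiP, was at 5.98 on WT, 8.30 in single-mutant marrow and 7.49 in double-mutant marrow. Atf4, the transcription factor of the integrated stress response, was at 7.22, 8.50 and 8.39. Sdf2l1 (1.94, 4.54 and 2.97), Creld2 (4.35, 5.99 and 5.37) and Chac1 (-1.67, -0.30 and -0.44) were the others. On each competitor array 17 of the 18 members lay above WT (7571 and 7657 of all 14051 genes did). The list medians were 1.31 and 0.72. WT was the lowest of the 8 arrays for 3 of the 5 called genes, and the count was between 2 and 5 under the other scalings.

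**Figure D3:**
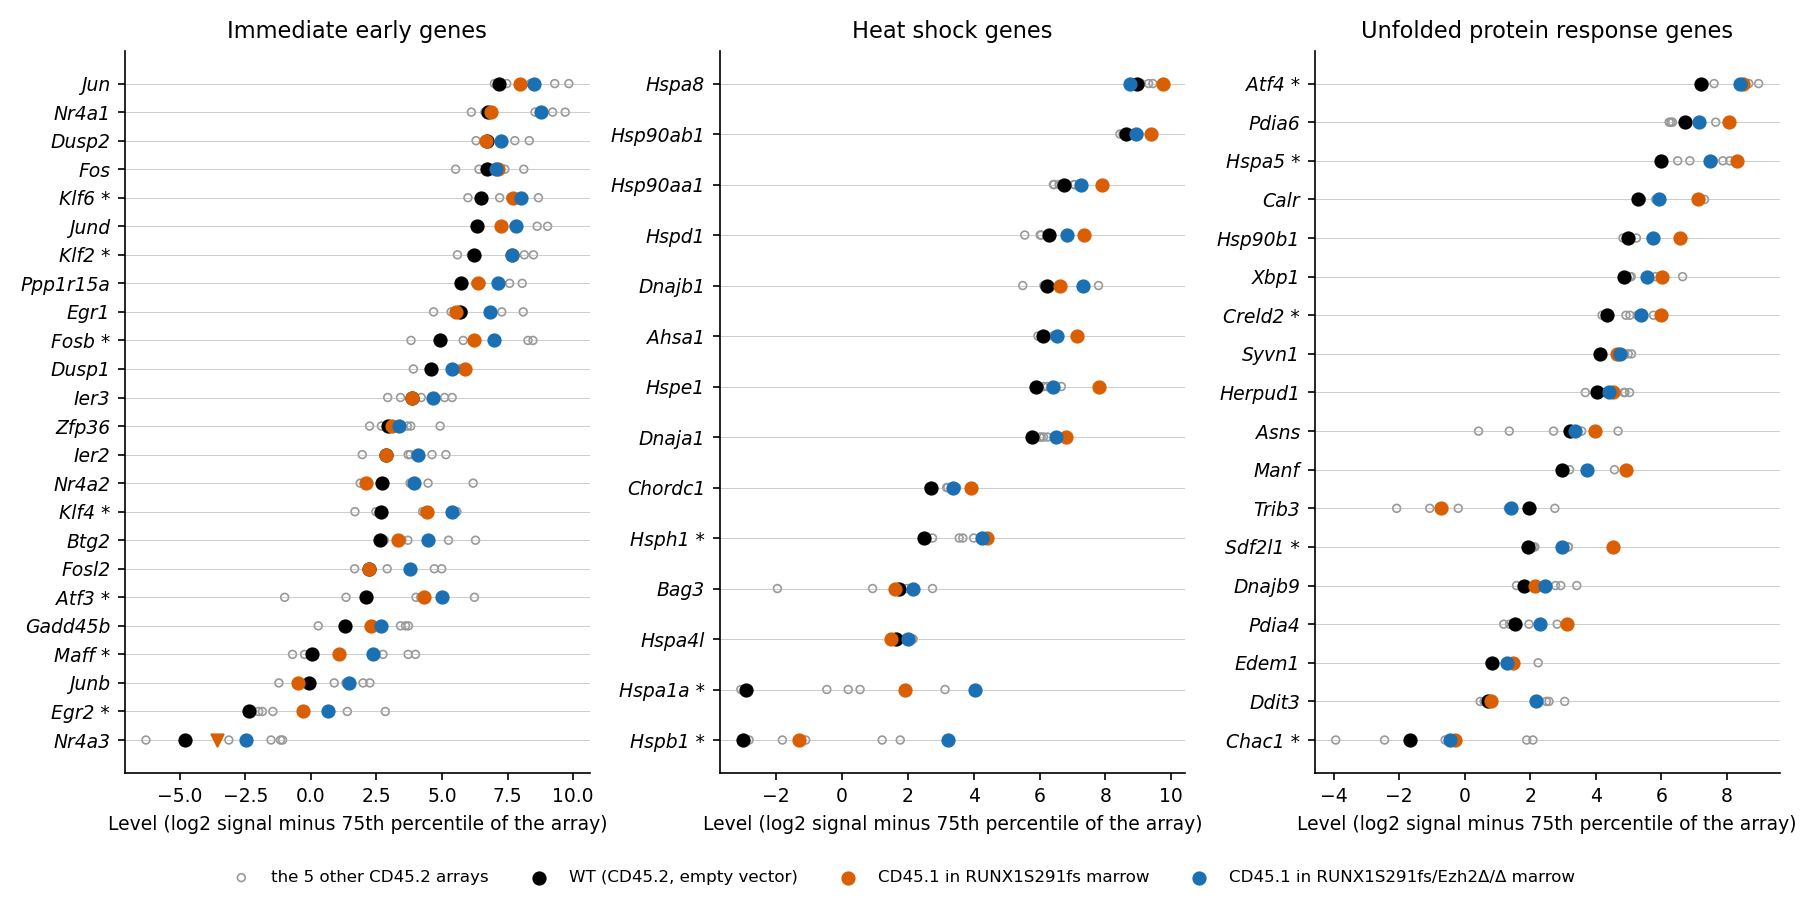
Levels (x axis, log2 signal minus the array's 75th percentile) of all measured members of 3 lists, ordered by the WT level. Black is WT, orange and blue are the competitors in single-mutant and double-mutant marrow, open circles are the 5 other CD45.2 arrays, triangles are values not well above background, and a star marks genes at least 2-fold higher on both competitors. Blue points lie to the right of black ones in all 24 immediate early genes.

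The promoter sequences of called members were searched for the motif by which each pathway is known to act on its genes. Promoters of 3 genes are shown because they stand for the heat shock, unfolded protein response and interferon groups. Each is the 250 bases before the gene start from RefSeq (GRCm38.p6, a later build than the mm9 of the array files), 5′ to 3′ on the gene's strand, with the motif in capitals.
Hspa1a chr17:34972157-34972406 (reverse strand): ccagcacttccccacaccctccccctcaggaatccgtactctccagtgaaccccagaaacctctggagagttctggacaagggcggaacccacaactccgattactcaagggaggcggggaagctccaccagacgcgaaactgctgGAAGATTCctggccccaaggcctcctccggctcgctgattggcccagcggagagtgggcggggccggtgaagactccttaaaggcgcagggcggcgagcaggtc
Hspa5 chr2:34771840-34772089 (forward strand): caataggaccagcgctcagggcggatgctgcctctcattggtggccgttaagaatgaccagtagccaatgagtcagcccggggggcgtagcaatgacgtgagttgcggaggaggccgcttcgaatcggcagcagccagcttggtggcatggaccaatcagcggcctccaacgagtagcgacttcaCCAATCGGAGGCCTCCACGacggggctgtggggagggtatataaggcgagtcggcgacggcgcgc
Ifit3 chr19:34583279-34583528 (forward strand): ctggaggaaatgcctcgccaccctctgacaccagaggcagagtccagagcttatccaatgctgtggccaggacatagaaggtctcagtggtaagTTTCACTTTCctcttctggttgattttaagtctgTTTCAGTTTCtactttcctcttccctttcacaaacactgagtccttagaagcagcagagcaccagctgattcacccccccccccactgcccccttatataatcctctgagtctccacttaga
The heat shock element was searched as GAANNTTC or TTCNNGAA on both strands. It stood in the promoters of all 3 called heat shock genes (in Hspa1a from base -104), in 6 of the 11 measured members with a promoter in the table, and in 12.8% of all 32851 promoters. The endoplasmic reticulum stress element, CCAAT and CCACG with 9 bases between them on either strand, stood in Hspa5 (from base -65) and Creld2, 2 of the 5 called genes, in 6 of 17 measured members and in 0.113% of all promoters. For the interferon-stimulated response element, GAAA repeated after 2 bases on either strand, there were matches in Ifit3 (from bases -156 and -122), the single such gene among 3 called members with a promoter, in 11 of 20 measured members and in 2.98% of all promoters. The cyclic AMP response element, TGACGTCA, stood in Maff alone of the 7 called immediate early genes, in 4 of 22 measured members and in 1.55% of all promoters. A match of letters is a description of these windows.

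Inflammatory genes under NF-kB were higher on both competitors in 4 of 23 measured members, against 1.67% of all genes, and lower in 0. Il1b, the cytokine interleukin 1 beta, was at -3.20 on WT, -0.72 in single-mutant marrow and -1.73 in double-mutant marrow. Cxcl2, a chemokine for neutrophils, was at -2.70 on WT, the lowest CD45.2 array, and at -0.83 and -0.90 on the competitors. Ptgs2, the inducible cyclooxygenase, was at -0.84, 0.37 and 0.49, above the highest CD45.2 level of 0.22. With Ccl2 these were the 4. The list median was 0.40 in single-mutant marrow, where it was -0.02 after quantile normalization, and 0.29 in double-mutant marrow. Of 15 measured genes of Toll-like receptor signalling, Cd14 was the single member called, and the list medians were 0.02 and 0.05.

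Interferon-stimulated genes were on the low side of WT. Of 25 measured members 4 were lower on both competitors, against 0.648% of all genes, and 0 higher. Ifit3, an antiviral protein, was at -1.56 on WT, -3.24 in single-mutant marrow and -2.86 in double-mutant marrow. Ifi44 was at 1.28, -1.87 and -0.03. Oasl1, of the oligoadenylate synthetase family, was at 3.77, 2.23 and 2.64. WT was the highest of the 8 arrays for these 3. Iigp1, a GTPase of cell-autonomous immunity, was at 0.62 on WT and at -0.65 and -1.25 on the competitors, below its CD45.2 range of -0.42 to 0.67. Its other measured probe, however, did not lie below WT on both arrays. The list medians were -0.95 and -0.40, negative under every scaling tried, and 3 to 5 members were called under them. The mean level of the list was 2.17 on WT, the highest of the 8 arrays, 1.24 and 1.67 on the competitors, and 0.38 to 1.91 on the other CD45.2 arrays.

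Genes of mature and committed cells were measured to describe what the sorted cells held. In such bulk samples fewer cells of a type and less RNA per cell cannot be told apart. Primary granule genes of granulocyte and monocyte progenitors were higher on both competitors in 4 of 13 members, against 1.67% of all genes. Elane, neutrophil elastase, was at 2.82 on WT, 7.30 in single-mutant marrow and 4.79 in double-mutant marrow. Ms4a3, a gene of granulocyte and monocyte progenitors, was at 2.82, 7.53 and 4.87. Ctsg, cathepsin G, was at 7.18, 10.01 and 8.23, and Igsf6 was the other. The list medians were 2.35 and 0.81, and the mean levels 3.26 on WT, 5.52 and 4.17 on the competitors and between 1.02 and 6.26 on the other CD45.2 arrays. Monocyte and macrophage genes were higher in 3 of 14 members, Cd14, Ccr2 and F13a1, the A subunit of coagulation factor XIII (1.84, 6.46 and 4.16), with medians of 1.55 and 0.30. Of the 14, 0 were dim on WT and 1 on each competitor.

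Mast cell and basophil genes were higher in 5 of 11 measured members. Over all genes 1.67% were higher, against which the counts of the next lists also stand. Beside Mcpt4 these were Cma1, another chymase (not well above background on WT, -2.09 and -2.53), Mcpt8, a basophil protease (0.85, 3.81 and 1.90), Hdc, which makes histamine (0.31, 3.27 and 2.20), and Gzmb, granzyme B (-3.33, -1.02 and -0.62). The mean level of the list was -1.05 on WT, 1.05 and 0.42 on the competitors and between -1.09 and 3.92 on the other CD45.2 arrays. The part that admixed mast cells had in this was not tested. Gzmb was also the single member called among 18 measured T and NK cell genes, with medians of 0.50 and -0.04. Dendritic cell genes were higher in 3 of 13 members, Cd83, Clec9a, a receptor for dead cells (-4.89, -1.70 and -3.69), and Batf3, a factor of cross-presenting dendritic cells (-4.49, -1.24 and -2.64). That count was 1 after normexp background correction and 3 under the other scalings. Of 11 measured MHC class II genes, Cd74, the invariant chain (0.80, 2.80 and 3.52), and H2-Eb1 (2.80, 4.40 and 5.22) were higher on both. Both lay above all 6 CD45.2 arrays, whose highest levels were 2.54 and 4.02. The medians of the class II list were near 0, at 0.06 and 0.08.

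**Figure D4:**
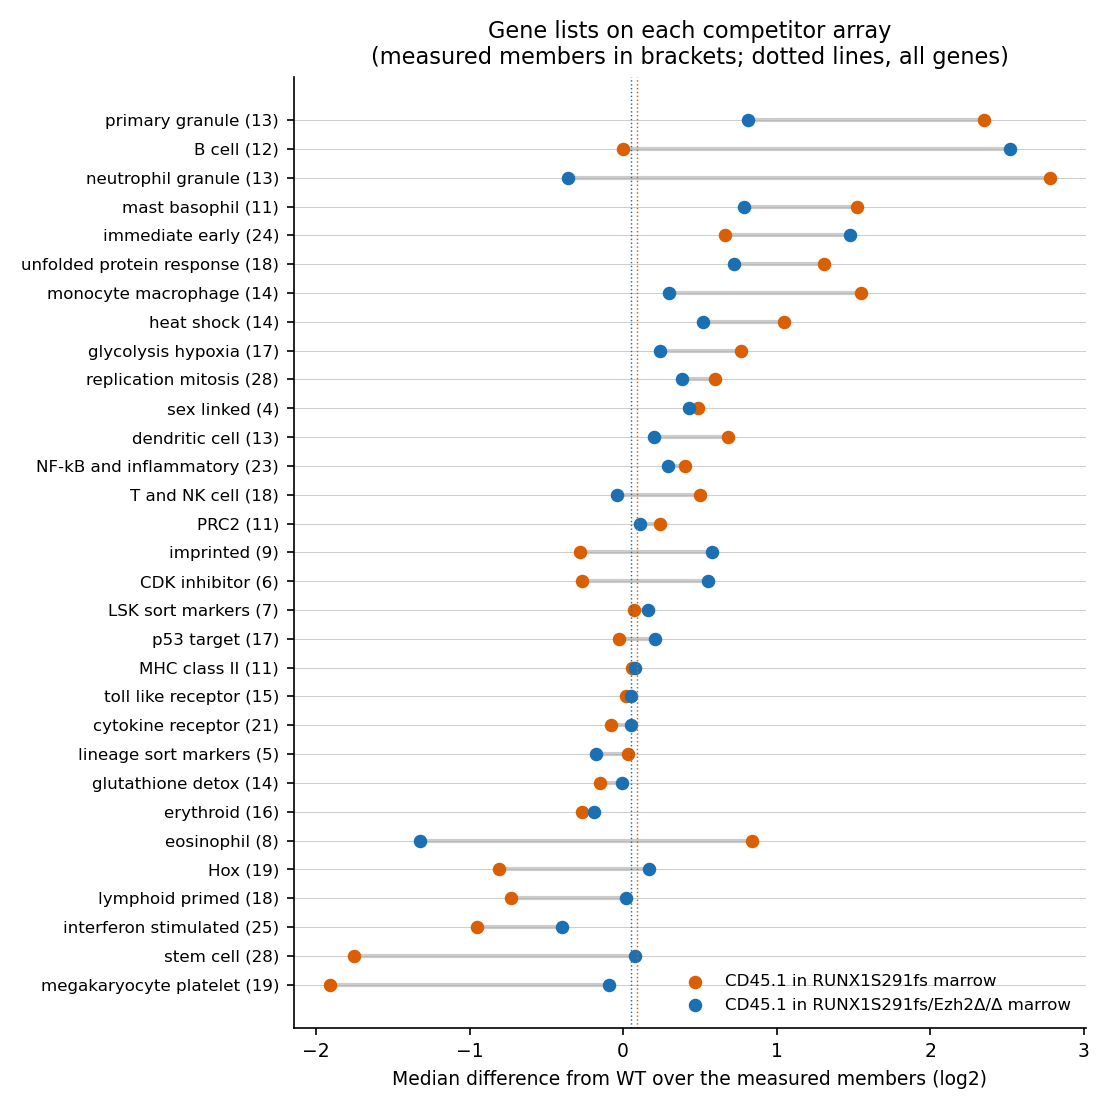
Median log2 difference from WT (x axis) over the measured members of each list, with orange for the competitors in single-mutant marrow and blue for those in double-mutant marrow. Dotted lines mark the medians over all genes, 0.09 and 0.05. Lists whose points lie on the same side and away from 0 include primary granule, immediate early, unfolded protein response and heat shock above and interferon stimulated below, and the widest gaps between points are in the neutrophil granule, B cell and eosinophil lists.

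Several lists lay away from WT on 1 competitor array and near it on the other; these gaps were not tested. Stem cell genes were lower than WT by at least 2-fold in 19 of 28 members in single-mutant marrow (6.55% of all genes were) and in 0 of 28 in double-mutant marrow (2.26% of all genes). Tie1, a receptor tyrosine kinase, was at 0.67 on WT, -2.77 in single-mutant marrow and 0.71 in double-mutant marrow, and Pdzk1ip1 at 4.82, 2.08 and 4.30. The medians of the list were -1.75 and 0.08 (-0.02 in double-mutant marrow when arrays were scaled on the probes detected on all 3). Megakaryocyte and platelet genes showed the same split, with 12 of 19 lower in single-mutant marrow and 0 in double-mutant marrow, and medians of -1.91 and -0.09. Mmrn1, a platelet granule protein, was at 0.95 on WT, not well above background in single-mutant marrow (-3.15) and at 1.99 in double-mutant marrow. Vwf, von Willebrand factor, was at 2.18, -0.37 and 3.89.

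B cell genes were at least 2-fold higher in double-mutant marrow in 10 of 12 measured members (4.54% of all genes). In single-mutant marrow 1 was higher (11.2%) and 2 were lower (6.55%). Vpreb3, a protein of the precursor B cell receptor complex, was at -0.09 on WT, -0.66 in single-mutant marrow and 3.70 in double-mutant marrow. Ebf1, which specifies the B lineage, was at -4.24 on WT, not well above background in single-mutant marrow, and at -0.69 in double-mutant marrow. Pou2af1, a coactivator of octamer factors in B cells, was the single member higher on both (-3.73, -2.11 and 0.86). The list medians were 0.00 and 2.52, and the mean levels -2.01 on WT, -1.99 and 0.49 on the competitors and between -3.42 and 2.03 on the other CD45.2 arrays. Of the 12 members, 3 were dim on WT, 6 in single-mutant marrow and 0 in double-mutant marrow, and the median of 0.00 rests on such bounds. The antibody chain gene Jchain was high on both competitors all the same.

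Late neutrophil granule genes were at least 2-fold above WT in 12 of 13 measured members in single-mutant marrow (11.2% of all genes) and in 2 in double-mutant marrow (4.54%). Lcn2, lipocalin 2 (-0.34 on WT, 3.76 and 1.98), and Mmp8, a collagenase (-3.67, -0.35 and -2.50), were higher on both. S100a8 and S100a9, which form calprotectin, and Camp, an antimicrobial peptide, lay on opposite sides of WT. S100a8 was at 2.53 on WT, 5.72 in single-mutant marrow and 1.23 in double-mutant marrow. The mean level of the list was -0.64 on WT, 2.07 and -0.69 on the competitors, and between -2.24 and 4.47 on the other CD45.2 arrays. Eosinophil granule genes of the Ear family, whose members share much sequence and may share probes, lay low in double-mutant marrow. Ear2 was at 1.21 on WT, 2.10 in single-mutant marrow and -2.00 in double-mutant marrow. Lymphoid-primed genes had medians of -0.73 and 0.02, and Rag1, the antigen receptor recombinase, was at -2.03 on WT, not well above background in single-mutant marrow and at -0.48 in double-mutant marrow. Of 16 measured erythroid genes none was called on both arrays (2.32% of all genes were), and Hba-a1, an alpha globin, was at 1.76, 4.95 and 1.27.

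**Figure D5:**
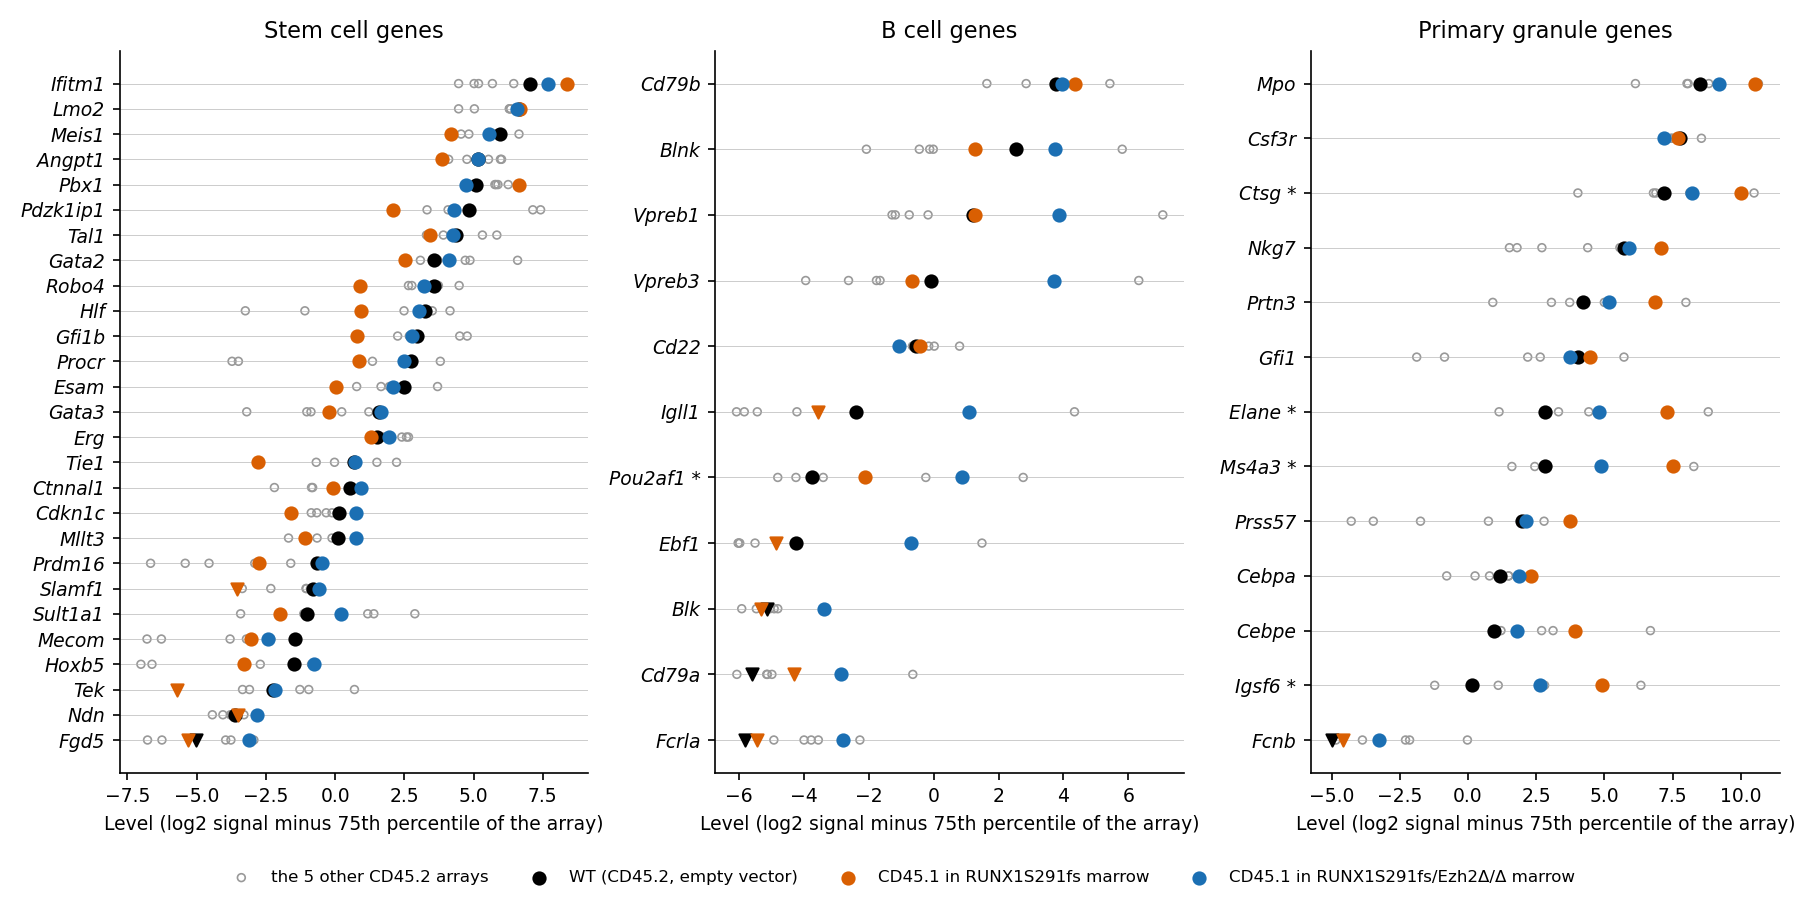
Levels (x axis, log2 signal minus the array's 75th percentile) of measured stem cell, B cell and primary granule genes, ordered by the WT level. Colours and symbols are as for the stress lists: black WT, orange single-mutant marrow, blue double-mutant marrow, open circles the 5 other CD45.2 arrays, triangles not well above background, stars called on both. Orange points lie to the left of black ones in 23 of the 27 stem cell genes drawn, blue points lie to the right in 10 of the 11 B cell genes drawn, and orange points lie to the right of both black and blue ones in most primary granule genes, where open circles often lie farther right.

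Above WT lay 27 of 28 replication and mitosis genes in single-mutant marrow (7571 of all 14051 genes) and 24 in double-mutant marrow (7657). Their medians were 0.60 and 0.38. At least 2-fold higher were 6 in single-mutant marrow (11.2% of all genes), 1 in double-mutant marrow (4.54%) and 0 on both. Aurkb, the kinase of the chromosomal passenger complex, was at least 2-fold lower on both, at -1.45 on WT and at -2.56 and -2.84 on the competitors. Pmaip1, the apoptosis gene Noxa, was at 0.38 on WT, the lowest of the 8 arrays, and at 3.88 and 2.63, and it was the single call among 17 measured p53 targets. The CDK inhibitor Cdkn1a was at 1.69, 2.59 and 3.61, under 2-fold from WT in single-mutant marrow. Glycolysis and hypoxia genes had medians of 0.77 and 0.24 and 0 calls of 17. Over all genes 2.32% were called on both arrays.

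None of the 11 subunits and partners of Polycomb repressive complex 2 was at least 2-fold from WT on either competitor array. Over all genes 17.7% were in single-mutant marrow and 6.8% in double-mutant marrow. Runx1 was at 3.04 on WT and at 3.24 and 3.55 on the competitors. Of 39 Hox genes 19 were measured, with medians of -0.81 and 0.17, and 7 were at least 2-fold lower in single-mutant marrow (6.55% of all genes) and 2 in double-mutant marrow (2.26%). Hoxc6 was lower on both (-0.19 on WT, not well above background in single-mutant marrow, -2.13 in double-mutant marrow). Of 9 measured imprinted genes none was called on both arrays (2.32% of all genes were). In single-mutant marrow 3 were lower (6.55% of all genes), and in double-mutant marrow 2 were higher (4.54%). Dlk1, a Notch-like protein, was at -1.53 on WT, -1.94 in single-mutant marrow and 2.32 in double-mutant marrow. Cytokine receptors (21 measured) and glutathione and detoxification genes (14 measured) had 0 calls on both arrays, against 2.32% of all genes. In single-mutant marrow Aldh1a1, an aldehyde dehydrogenase, was 83.0-fold below WT (3.35 and -3.03), while in double-mutant marrow it was at 2.52.

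The chromosome segment around Ptprc was looked at because the CD45 allele is the mark of the competitors. Among the 40 genes on either side of it in the RefSeq order, 52 were measured and 4 were called (7.69%, against 2.32% of all genes). Cacna1s, a calcium channel subunit, was at -4.92 on WT and at -3.01 and -2.88 on the competitors, and Rgs2, an inhibitor of G protein signalling, at 6.57, 7.61 and 8.02. Ptgs2 was the third higher gene, and Gpr25 (-0.26, -1.74 and -1.32) the lower gene. The other measured probe of Gpr25 did not lie below WT on both arrays. Within 20 genes on either side, 2 of 23 measured genes were called (8.7%), Cacna1s and Gpr25. Ctse lies 81 genes from Ptprc in that order. With counts this small the number of calls hangs on single genes.

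Genes with more than 1 probe gave a check within the arrays. Of the 326 called genes, 49 had another measured probe. Such a probe was called the same way in 18 and lay on the called side of WT on both arrays in 37. In 2 genes, of which Eaf2 is 1, it was called the opposite way. Probes without a gene name held a further 477 calls among 13226 measured (3.61%), 204 higher and 273 lower. Foremost among them were 4 probes for an interval named by the array's designers, chr2:174088550-174109425 of mm9 on the reverse strand. They lay between -7.08 and -6.09 on WT, not well above background there or on any other CD45.2 array, and between -1.87 and -1.16 on the competitors. The smallest of these differences was at least 3.33. Another called probe, for the forward strand of the same interval, was at -7.39 on WT, not well above background. It was at -2.70 and -2.43 on the competitors. No gene is named for that interval, since no mm9 annotation was used here.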

How the data were processed

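Sorted cells gave total RNA, of which 20 ng with added spike-in transcripts was amplified, labelled with Cy3 and hybridised to 8 Agilent arrays, 1 for each group, per the labels' protocols. The processed intensity of each spot is the spot's brightness after background and spatial trend were removed within its array, per the file headers, with no scaling between arrays. The authors' deposited series table holds linear signal values that equal the processed intensity divided by 1 factor per array. These were used as an alternative. All 8 of its columns were used and 0 were left out.

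Control spots and 45 probes with outlier flags were left out of 55681 probes, leaving 55636, of which 27208 name 1 of 20643 genes. The log2 levels were computed here from the deposited intensities, minus the 75th percentile of each array. Gene names are those of the array design, updated through RefSeq (GRCm38.p6); array coordinates are mm9. Of several probes of a gene, the brightest by its mean over the 8 arrays was kept. A gene entered with a probe well above background on at least 1 of the 3 arrays, and counts of calls use 2-fold on both competitors. limma 3.58.1 (R 4.3.3) gave log2 differences with Benjamini-Hochberg adjusted p-values at 0.05, and was tested on simulated data. The simulation gave every gene the same noise, unlike these arrays, so it does not show how the fits perform here. Other work used Python 3.11.15, pandas 2.3.3, numpy 2.4.6 and matplotlib 3.10.9. The number of arrays limits the precision, since no group has a second array; the median SD of repeat spots was 0.056 to 0.070 (log2).

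The genes named are the 12 with the largest smaller difference in each direction, the 5 with the largest bounds on each side, the 4 with the smallest p of each fit, and list members called on both arrays, among the 4 largest differences or on opposite sides of WT. Genes apart from all CD45.2 arrays, those next to the 2-fold limit, neighbours of Ptprc and Gda and Hvcn1 were added for their place in the results. Some list members are counted but not reported here by name or in the plot of lineage genes. The comparison and the 31 gene lists were chosen with earlier results of these data known. Of 510 list genes, 499 had a probe and 443 were measured. Alternatives changed the scaling, the background correction, the filter, the choice of probe, the fold, the series table, the slide and the arrays included.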

Additional observations from a re-analysis of the deposited data

Results flagged for a closer look

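Some genes lay on opposite sides of WT on the competitor arrays, and these differences were not tested. Camp was 4.52 log2 units higher in single-mutant than in double-mutant marrow, S100a8 4.49, S100a9 4.07 and Ear1 3.99. In the other direction Mmrn1 (-5.14), Igll1 (-4.57), Vwf (-4.25), Ccr9 (-3.60), Rag1 (-3.01) and Blnk (-2.50) were lower in single-mutant marrow. Mmrn1, Igll1, Ccr9 and Rag1 were not well above background there, and their values hold the level as a bound.

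The medians of 11 lists had opposite signs on the competitor arrays, again untested, and in 4 of them both medians were at least 0.25 from 0. The neutrophil granule list was at 2.78 in single-mutant marrow and -0.36 in double-mutant marrow. The eosinophil list was at 0.84 and -1.32. The CDK inhibitor list was at -0.27 and 0.55, and the imprinted list at -0.28 and 0.58.

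Outside the named genes, 477 probes without a gene name lay at least 2-fold from WT on both competitors.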

How the results depend on the processing

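No paired analysis was possible because each group has 1 array. The main count of 326 genes was 154 after normexp background correction, 1180 with no filter, 110 at 3-fold and 1117 at 1.5-fold; taking 1 competitor array alone gave 956 to 2489. For single-mutant marrow against WT (2489) the counts under these 4 settings were 1565, 8536, 831 and 5417. For double-mutant marrow against WT (956) they were 389, 2064, 350 and 2656, with 497 over genes measured on all 3 arrays and 579 with a common floor, which was chosen after seeing the data. Between the competitors (2141) they were 1216, 8109, 696 and 4919. The neighbours of Ptprc called were 2 within 20 genes on each side. The 3-array limma fit, which called 0, called 8 genes over those measured on all 3 arrays, 92 with no filter, 6 after scaling on the median, 1 after scaling on probes detected on all 3 and 85 after normexp. The 8-array limma fit called 1 with no filter and 3 with slide as a block. Leaving out a competitor leaves the 3-array fit no residual degrees of freedom, so it was not run. The causes of these moves were not tested, apart from the altered filter or fold itself. The share of higher genes for single-mutant marrow against WT was 63% and was 46.3%, 36.3% and 46.9% under the median, detected-probe and quantile scalings. For double-mutant marrow it was 66.7%, and 55.2% under detected-probe scaling and 76.9% after normexp. Between competitors it was 58.1%, against 33.9%, 39.3% and 40.1%. Over all settings, 2625 differences of named genes moved by at most the SD between the competitor arrays and 223 by more, and none past 2-fold changed sign. Low genes in single-mutant marrow, whose lowest measured level is the highest of the 3 arrays, have bounds only.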

Other observations

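Groups of genes that share a name were counted after their values were seen, with no test. Over all genes 1.67% were higher on both competitors and 0.648% lower. Metallothioneins, which bind zinc and copper, were higher on both competitors in 2 of 4 measured members, and in 2 under each other scaling tried. Mt1 was at 4.52 on WT, 7.82 in single-mutant marrow and 6.69 in double-mutant marrow, and Mt2 at 1.41, 3.23 and 2.70. Host genes of small nucleolar RNAs were higher in 4 of 9 (2 to 4 under the other scalings), with medians of 1.51 and 0.85. Snhg1 was at 1.94 on WT and at 4.05 and 3.15 on the competitors. Histone genes were higher in 6 of 61, between 3 and 6 under the other scalings, and many are near-identical copies that a probe may not tell apart. Of 316 numbered Zfp genes, 1 was higher and 7 lower, with 2 to 10 lower under the other scalings. Of 4 measured Serpina3 genes, Serpina3f and Serpina3h (0.56, -0.78 and -0.74) were lower on both, and 2 were lower under each other scaling tried.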
